A study of Mus musculus with 24 samples.

Results

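A set of 10 genes of the hyaluronan and provisional matrix system were followed through 4 cell populations of mouse hindlimb muscle. The genes were Has1 and Has2, Cd44, Tnfaip6, Ptx3, Vcan, Tnc, Thbs1, Thbs2 and Postn, taken by their symbols from a table of 52997 gene symbols, and all 10 of 10 passed the filter on low counts, which 16263 genes passed. All mice were C57BL/6, aged 8 weeks. In the injured groups the muscle was taken on day 1 after cardiotoxin, a venom protein that kills muscle fibers and spares much of the matrix and the stem cells, and in the uninjured groups it was taken without injury. The 4 populations were CD31+ endothelial cells, CD45+ hematopoietic cells, mesenchymal stromal cells (MSC, negative for CD45 and CD31, positive for Sca1 and PDGFRa) and muscle stem or satellite cells (MuSC, negative for CD45, CD31 and Sca1, positive for Vcam1). Each of the 8 groups had 3 libraries, called biological replicates by the submitters, and each library came from 1000 cells that were sorted in 2 rounds. The sample titles number a muscle in each group, so the 4 populations of a condition that share a number may come from the same muscle. Nothing else in the labels says so, and every p-value rests on the spread among these libraries.

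Hyaluronan is a long sugar polymer that hyaluronan synthases spin out through the plasma membrane. It fills the space between cells in fresh wounds. There it is bound by the receptor CD44, by the proteoglycan versican and by the secreted protein TSG-6 (Tnfaip6). With pentraxin 3 (Ptx3), another secreted protein, these stabilise a loose, hydrated network. Tenascin-C, the thrombospondins and periostin are matricellular proteins: they sit in this temporary matrix and act on cell adhesion more than on stiffness. In muscle the network is laid down around dying fibers before collagen-rich matrix is rebuilt, and satellite cells move and divide within it.

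The libraries held 2301202 to 7649841 counts, in which 3 counts correspond to 0.389 to 1.02 CPM (the usual unit of counts relative to library size, here the TMM-scaled size). Pairs of libraries of the same group correlated at 0.949 to 0.985, and no pair from different groups exceeded 0.937. The sorts carried their markers. The 12 endothelial markers summed to 12739 to 13903 CPM in injured and 15854 to 17150 CPM in uninjured CD31+ cells, and to 186 CPM or less in every other library. The 12 leukocyte markers summed to 37013 to 38426 CPM in injured and 28822 to 34099 CPM in uninjured CD45+ cells. The 12 stromal markers summed to 40541 to 58208 CPM in injured and 163198 to 216179 CPM in uninjured MSC. The 12 satellite cell markers summed to 7983 to 9102 CPM in injured and 8126 to 9357 CPM in uninjured MuSC. A few libraries held more transcripts of genes that mark other populations. Pdgfra, a gene of the MSC gate, was at 0.298, 48.8 and 25.4 CPM in injured MuSC replicates 1, 2 and 3, against 0.194, 0.339 and 0 CPM in uninjured MuSC. Leukocyte markers summed to 300 CPM in injured CD31+ replicate 1 and to 24.1 and 22.1 CPM in replicates 2 and 3, against 9.35 to 12.4 CPM in uninjured CD31+ cells. Whether such transcripts came from other cells in the sort or from the sorted cells was not tested. Because each library is a bulk sample of sorted cells, fewer expressing cells and less RNA per cell cannot be told apart.

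The genes lie apart on 6 chromosomes (GRCm38, the assembly of mm10, with GENCODE vM21 gene models) and all are protein coding. Has1 is on the minus strand at chr17:17843323-17855205, Has2 on the minus strand at chr15:56665627-56694539, Cd44 on the minus strand at chr2:102811141-102901665 and Tnfaip6 on the plus strand at chr2:52038009-52056686. Ptx3 is on the plus strand at chr3:66219910-66225805, Vcan on the minus strand at chr13:89655312-89742509 and Tnc on the minus strand at chr4:63959785-64047015. Thbs1 is on the plus strand at chr2:118111876-118127133, Thbs2 on the minus strand at chr17:14665500-14694235 and Postn on the plus strand at chr3:54361109-54391037. Exons of Has2, Tnc and Thbs1 share 182, 176 and 208 bases with a noncoding gene on the opposite strand (Has2os, 8030451A03Rik and Gm29233), and since the library kit does not mark the strand, reads there cannot be assigned to either gene. These bases are 4.30%, 2.26% and 3.43% of the exon length of Has2, Tnc and Thbs1.

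Of the 10 genes, 8 had an entry in RefSeq's promoter table (GRCm38.p6, 250 bases before to 50 bases after the start), and 5 short motifs were looked for there on both strands. The start is RefSeq's and can differ from the end of the GENCODE model given above. For Has1, Tnc and Tnfaip6 it lies inside that model. The stretches below are shown because each of these genes changed after injury in MSC or MuSC, and they carry different motifs near their starts. Each is 60 bases, 5′ to 3′ on the gene's strand, and capitals mark the motif.

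Has1 (chr17:17855238-17855297, CRE): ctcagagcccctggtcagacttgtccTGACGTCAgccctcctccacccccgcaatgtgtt

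Tnfaip6 (chr2:52037944-52038003, AP-1): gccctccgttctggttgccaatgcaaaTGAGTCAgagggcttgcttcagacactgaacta

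Ptx3 (chr3:66219847-66219906, NF-kB): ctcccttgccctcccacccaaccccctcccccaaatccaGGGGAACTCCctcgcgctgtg

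Thbs2 (chr17:14694384-14694443, NF-kB): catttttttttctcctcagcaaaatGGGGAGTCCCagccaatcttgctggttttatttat

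Tnc (chr4:64046933-64046992, TATA box): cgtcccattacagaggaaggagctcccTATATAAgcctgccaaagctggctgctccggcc

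Postn (chr3:54361052-54361111, TATA box): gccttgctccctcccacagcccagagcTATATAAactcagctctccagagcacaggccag

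The CRE letters (TGACGTCA) of Has1 stood 83 to 76 bases before the start and are found in 1.79% of 32851 promoters of the same length. The AP-1 letters (TGANTCA) of Tnfaip6 stood 142 to 136 bases before the start, and 7.81% of promoters hold them. The NF-kB motif of Ptx3 began 1 base before the start and has a second, overlapping match shifted by 1 base, and that of Thbs2 began 156 bases before the start (8.46% of promoters). The TATA letters (TATANAA) of Tnc and Postn began 29 and 28 bases before the start, and 11.3% of promoters hold them. Postn has a further TATANAA match that begins 212 bases before the start. The TEAD letters (GGAATG, 14.7% of promoters) matched Tnfaip6 only. The windows of Cd44 and Vcan held none of the 5 motifs. A match is a description of these letters and was not tested for any function.

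The plot of CPM in each library shows the main pattern. Transcripts of the synthase genes Has1 and Has2, the crosslinking proteins and Postn were mostly in MSC. Cd44 was in every population and highest in CD45+ cells, Thbs1 and Vcan rose most in CD45+ cells, and Tnc rose in MSC, MuSC and CD31+ cells.

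**Figure D1:**
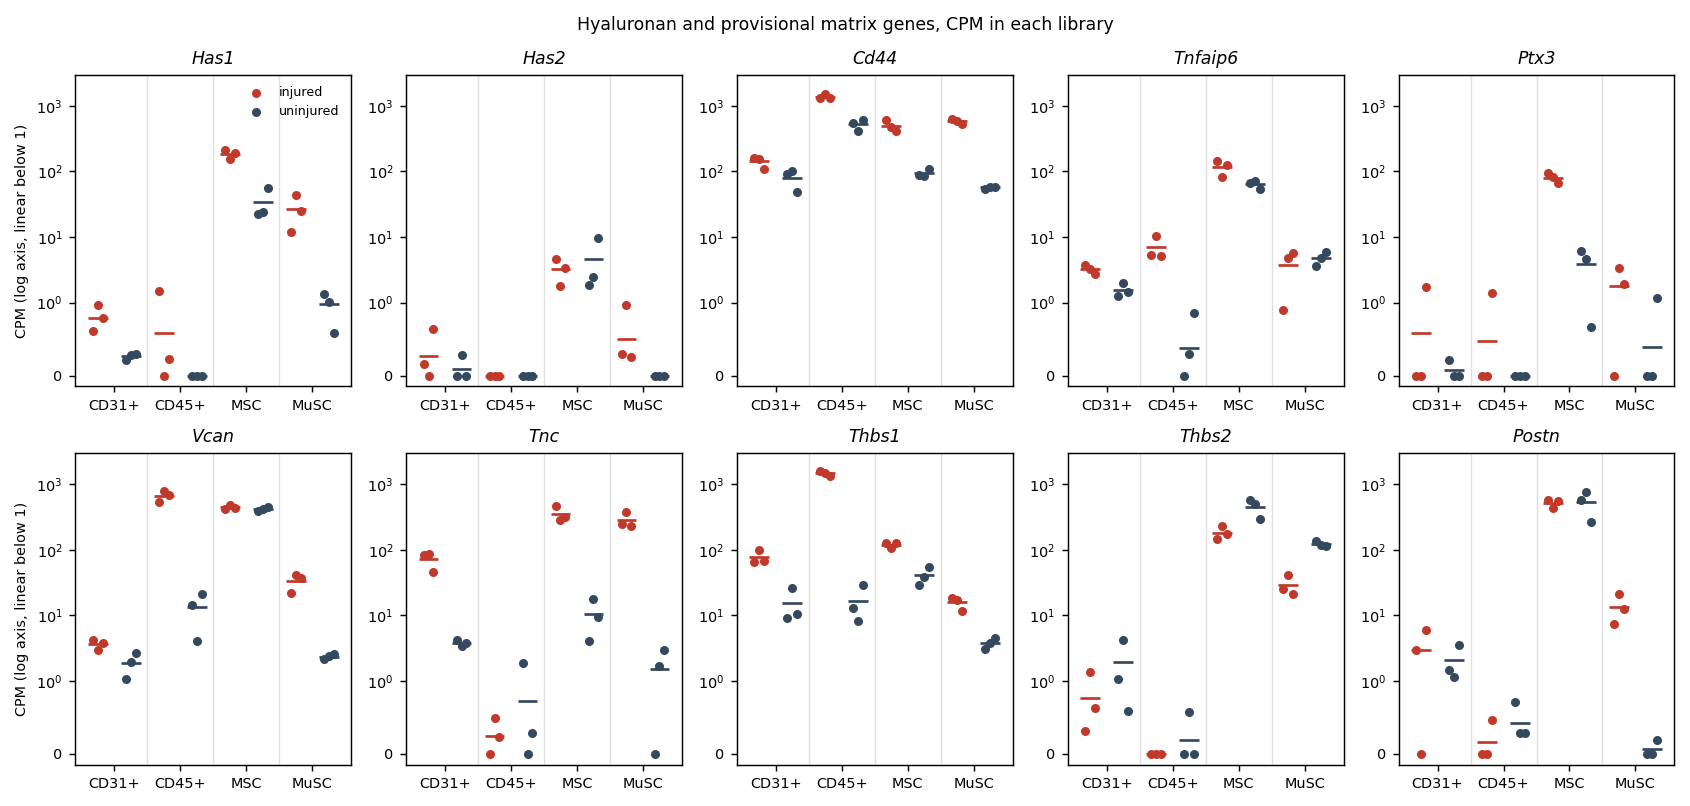
CPM of each of the 10 genes in each of the 24 libraries (log axis that is linear below 1), injured (red) left of uninjured (dark) in CD31+, CD45+, MSC and MuSC, with a bar at the mean of 3 libraries. Thbs1 lies between 1342 and 1583 CPM in injured CD45+ cells, against 8.10 to 28.9 CPM in uninjured ones.

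Has1 and Has2, which encode hyaluronan synthases, were highest in MSC, and Has1 rose there. Has1 was at 210, 154 and 190 CPM in injured MSC replicates 1, 2 and 3, against 22.5, 23.97 and 56.6 CPM in uninjured MSC. All 3 injured libraries were above all uninjured ones, and Has1 rose by 2.43 ± 0.40 log2 (SE; edgeR's quasi-likelihood test, Benjamini-Hochberg adjusted p = 6.4e-05). Without uninjured MSC replicate 3, which had the highest uninjured value, the rise was 3.15 log2. In MuSC, Has1 was at 11.9, 43.8 and 24.5 CPM in injured libraries and at 1.36, 1.02 and 0.589 CPM in uninjured ones, a rise of 4.73 ± 0.60 log2 (edgeR, adjusted p = 3.78e-06). The injured MuSC values followed the order of Pdgfra in the same libraries, lowest in replicate 1 and highest in replicate 2. Ptx3, Vcan and Postn had that order too, and the other genes of the set did not. What gave this order was not tested. With replicate 1 as the only injured MuSC library, the lone library being assumed to vary like the other groups, the rise was 3.42 log2 (edgeR, adjusted p = 0.000291). In CD31+ cells Has1 had 14 counts in the injured libraries together and 3 in the uninjured, and in CD45+ cells 7 and 0, and neither passed the test (adjusted p = 0.447 and 0.164). DESeq2 called the CD45+ difference (3.52 log2, adjusted p = 0.0323), of which 6 of the 7 counts were in replicate 1. In the order of levels, injured MSC stood above uninjured MSC, which did not differ from injured MuSC beyond the spread (adjusted p = 0.468), and both stood above the rest.

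Has2, the synthase that is essential in mouse development, was low throughout. It had 33, 11 and 19 counts in injured MSC (4.61, 1.82 and 3.42 CPM), against 11, 11 and 44 counts in uninjured MSC (1.84, 2.46 and 9.77 CPM). The groups overlapped, and the difference of -0.50 ± 0.77 log2 did not pass (edgeR, adjusted p = 0.647). Without uninjured replicate 3 it was 0.76 log2. Has2 had no count in all 6 CD45+ libraries, in which 3 counts would be 0.701 to 0.868 CPM. In MuSC it had 2, 6 and 2 counts in injured libraries and 0 in each uninjured one. Taking 3 counts for the uninjured group gave 2.13-fold, and the 95% counting interval of the ratio began at 1.43. The difference missed the threshold (edgeR, adjusted p = 0.0665). Per exon length, Has1 exceeded Has2 by 42.8, 79.3 and 52.2 times in the 3 injured MSC libraries and by 11.4, 9.12 and 5.44 times in the 3 uninjured ones. The highest uninjured ratio was below the lowest injured one.

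The other genes of hyaluronan metabolism moved in both directions. Of all genes tested, 14.1% rose and 9.3% fell in CD31+, 16% rose and 18.5% fell in CD45+, 18.3% rose and 23.6% fell in MSC, and 21.4% rose and 17.5% fell in MuSC. Of 10 genes tested in this list, 1 rose and 0 fell in CD31+, 6 rose and 1 fell in CD45+, 2 rose and 4 fell in MSC, and 4 rose and 3 fell in MuSC. The medians of their log2 fold changes were 0.03, 0.60, -0.79 and -0.31 in that order of populations, against -0.04, -0.12, -0.22 and -0.04 for all genes tested. The third synthase, Has3, averaged 9.54 ± 3.91 CPM in injured and 23.5 ± 11.6 CPM in uninjured CD31+ cells (SD, n = 3 each), the population with its highest means, and did not pass there (adjusted p = 0.138). It fell in CD45+ cells, with 2 counts in injured and 19 in uninjured libraries (-3.15 ± 1.19 log2, adjusted p = 0.0431). In MSC the hyaluronidase genes Tmem2 and Hyal2 rose. Tmem2, a cell surface hyaluronidase, was at 33.6 ± 8.52 CPM in injured and 8.39 ± 1.99 CPM in uninjured MSC (2.02 ± 0.25 log2, adjusted p = 7.16e-07), and Hyal2 rose by 1.14 ± 0.22 log2 (adjusted p = 0.000224). Tmem2 also rose in CD45+ and MuSC (0.94 and 0.79 log2), and Hyal2 in CD31+, CD45+ and MuSC (0.87, 0.64 and 0.89 log2). Hexa, which encodes a lysosomal enzyme subunit, fell in MSC by 1.83 on the log2 scale (adjusted p = 1.53e-09) and in MuSC by 0.87. In MuSC Ugdh, which makes the UDP-glucuronic acid that the synthases use, rose by 1.02 ± 0.21 log2 (adjusted p = 0.000391), as it did in CD45+ (0.77 log2). The hyaluronidase gene Hyal1 fell by 1.71 in MuSC and by 1.56 in MSC on the log2 scale.

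The receptor Cd44 rose in all 4 populations. In injured CD45+ cells it was at 1304, 1508 and 1327 CPM, against 553, 415 and 606 CPM in uninjured CD45+ cells. In injured MuSC it was at 623, 594 and 530 CPM, against 54.8, 58.3 and 58.7 CPM in uninjured MuSC. In injured MSC it was at 602, 469 and 416 CPM, against 86.8, 86.5 and 107 CPM in uninjured MSC. In injured CD31+ cells it was at 163, 155 and 110 CPM, against 91.0, 102 and 47.7 CPM in uninjured CD31+ cells. No injured library overlapped an uninjured one of its population. The rises were 3.35 ± 0.22 log2 in MuSC (adjusted p = 1.46e-10), 2.41 ± 0.21 in MSC (1.01e-08), 1.40 ± 0.20 in CD45+ (1.84e-05) and 0.83 ± 0.21 in CD31+ (0.00547), all by edgeR. The response differed between populations (F test over 4 populations in edgeR, adjusted p = 4.09e-06). Pair by pair, the rise in MuSC exceeded those in CD45+ and CD31+ by 1.95 and 2.52 log2 (adjusted p = 3.54e-05 and 7.36e-06), while the difference of 0.94 log2 from MSC did not pass (adjusted p = 0.0518). Uninjured CD45+ cells had the highest level of the 4 uninjured populations and injured CD45+ cells that of the 4 injured ones. Without injured CD31+ replicate 1, the CD31+ library with the highest sum of leukocyte markers, the rise in CD31+ cells was 0.73 log2 (edgeR, adjusted p = 0.0315). Injured MuSC reached 126%, 120% and 107% of the injured MSC mean of Cd44.

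Of 18 other hyaluronan-binding genes, 8 passed the filter. Of these, 0 rose and 2 fell in CD31+, 1 rose and 2 fell in CD45+, and 2 rose and 2 fell in both MSC and MuSC, with medians of -0.25, -0.84, -0.85 and -1.67 log2. Of all genes tested, 14.1%, 16%, 18.3% and 21.4% rose and 9.3%, 18.5%, 23.6% and 17.5% fell in CD31+, CD45+, MSC and MuSC. Layn, whose product layilin is another hyaluronan receptor, was at 228 ± 3.64 CPM in injured and 38.2 ± 2.19 CPM in uninjured MSC (2.57 ± 0.33 log2, adjusted p = 1.69e-06) and rose by 3.49 ± 0.48 log2 in MuSC. Itih5, a member of the inter-alpha-inhibitor heavy chain family, was at 175 ± 32.1 CPM in injured and 1387 ± 147 CPM in uninjured MSC and fell by 2.98 on the log2 scale (adjusted p = 6.52e-09). It fell by 1.90 in MuSC and by 1.58 in CD31+ on the same scale. Lyve1, a hyaluronan receptor of lymphatic endothelium and of some resident macrophages, was at 27.4 ± 26.9 CPM in injured and 345 ± 243 CPM in uninjured CD45+ cells and fell (adjusted p = 0.0154). It also fell in CD31+ cells (-4.47 ± 1.41 log2, adjusted p = 0.0289), where the libraries overlapped.

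Transcripts of the crosslinking proteins were mostly in MSC. Ptx3, a pentraxin that binds the hyaluronan network and microbes, was at 93.8, 80.9 and 66.9 CPM in injured MSC, against 6.2, 4.70 and 0.666 CPM in uninjured MSC. It rose by 4.34 ± 0.84 log2 (edgeR, adjusted p = 0.00047), although DESeq2 gave an adjusted p of 0.0983. Without uninjured MSC replicate 1 the rise was 5.05 log2. Injured MSC held more Ptx3 than each other injured population. In uninjured muscle its difference between MSC and MuSC missed the threshold (edgeR, adjusted p = 0.0647). In MuSC it had 0, 21 and 15 counts in injured replicates 1, 2 and 3, the order of Pdgfra again, against 0, 0 and 6 counts in uninjured MuSC, and did not pass (adjusted p = 0.30). Its 11 counts in injured CD31+ cells and its 6 counts in injured CD45+ cells were each in replicate 3. That CD45+ library had Pdgfra at 6.31 CPM, against 0 CPM in the other injured CD45+ libraries.

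Tnfaip6 encodes TSG-6, which transfers heavy chains of inter-alpha-inhibitor to hyaluronan. It was at 143, 82.4 and 124 CPM in injured MSC, against 65.7, 71.2 and 54.9 CPM in uninjured MSC. The injured libraries lay above the uninjured, and the rise of 0.86 ± 0.32 log2 passed narrowly (edgeR, adjusted p = 0.0341). It missed the threshold with other size factors (0.0550), in DESeq2 (0.0780) and without injured MSC replicate 1 (0.0870), injured MSC replicate 3 (0.0947) or uninjured MSC replicate 3 (0.0603). In CD45+ cells Tnfaip6 had 21, 43 and 22 counts in injured libraries and 0, 1 and 3 counts in uninjured ones, and rose by 4.19 ± 0.71 log2 (edgeR, adjusted p = 6.9e-05). The size of that rise depended on the few uninjured counts: it was 3.55 log2 without uninjured CD45+ replicate 1 and 5.56 log2 without replicate 3. At 6.99 ± 3.07 CPM, injured CD45+ cells stayed below the 116 ± 31.0 CPM of injured MSC (SD, n = 3 each). In MuSC it was at 0.893, 4.82 and 5.71 CPM in injured and 3.68, 4.75 and 5.89 CPM in uninjured libraries, and did not pass. With injured MuSC replicate 1 alone it was lower by 2.53 on the log2 scale (adjusted p = 0.00507). In CD31+ cells all injured libraries were higher (3.69, 3.30 and 2.70 CPM, against 1.28, 1.98 and 1.47 CPM in uninjured ones) without passing (adjusted p = 0.197). With no filter on low counts that difference passed (adjusted p = 0.0358).

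Vcan encodes versican, the large proteoglycan that binds hyaluronan at one end. In uninjured muscle it was a stromal gene. At 1 day after injury all CD45+ libraries lay above all MSC libraries, a difference that missed the threshold. Vcan was at 530, 780 and 677 CPM in injured CD45+ cells, against 14.5, 4.05 and 21.5 CPM in uninjured CD45+ cells. All injured libraries stood far above the uninjured ones, by 5.63 ± 0.35 log2 (edgeR, adjusted p = 4.73e-10). In MSC it was at 414, 486 and 436 CPM in injured and 385, 414 and 452 CPM in uninjured libraries, groups that overlapped (0.09 ± 0.27 log2, adjusted p = 0.825). Injured CD45+ cells were above injured MSC by 0.57 ± 0.27 log2 with no overlap of libraries (edgeR, adjusted p = 0.0733). In MuSC Vcan was at 21.9, 41.3 and 36.7 CPM in injured and 2.13, 2.37 and 2.55 CPM in uninjured libraries, a rise of 3.81 ± 0.41 log2 (adjusted p = 3.89e-07), and with injured replicate 1 alone the rise was 3.06 log2 (adjusted p = 0.000179). Of the mean CPM summed over the 4 populations, CD45+ cells held 57.9% after injury and 3.07% without it, and MSC 38.9% after injury and 96.0% without it. These shares weight each population equally, whatever its number of cells in the muscle. The response differed between populations (adjusted p = 7.17e-08), and that of CD45+ cells exceeded those of MSC, MuSC and CD31+ by 5.53, 1.82 and 4.63 log2 (adjusted p = 2.21e-08, 0.0313 and 0.000302).

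Thbs1 encodes thrombospondin-1, a matricellular protein that is also stored in platelets. It rose in every population and most in CD45+ cells. It was at 1583, 1493 and 1342 CPM in injured CD45+ cells, against 13.1, 8.10 and 28.9 CPM in uninjured CD45+ cells, a rise of 6.47 ± 0.43 log2 (edgeR, adjusted p = 2.67e-09) and of 7.16 log2 without uninjured CD45+ replicate 3. In CD31+ cells it was at 65.5, 100 and 67.3 CPM in injured and 9.14, 26.0 and 10.6 CPM in uninjured libraries (2.36 ± 0.38 log2, adjusted p = 0.000136), with 2.97 log2 without uninjured replicate 2. In MSC it was at 125, 106 and 128 CPM in injured and 29.2, 37.9 and 55.1 CPM in uninjured libraries (1.56 ± 0.35 log2, adjusted p = 0.00132). In MuSC it was at 18.6, 17.0 and 11.7 CPM in injured and 3.10, 3.73 and 4.52 CPM in uninjured libraries (2.05 ± 0.48 log2, adjusted p = 0.00211). CD45+ cells held 87.4% of the summed mean CPM after injury and 21.8% without it. Their response exceeded those of CD31+, MSC and MuSC by 4.10, 4.91 and 4.42 log2 (adjusted p = 3.43e-05, 1.27e-06 and 7.83e-05). Per exon length, Thbs1 at 242 ± 20.1 RPKM (CPM per kb of exon; SD, n = 3) had the highest mean of the 10 genes in injured CD45+ cells, followed by Cd44 at 204 ± 16.5.

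Markers of neutrophils and platelets moved in the same CD45+ libraries. The 9 neutrophil markers summed to 5764 to 9232 CPM in injured and 1153 to 3388 CPM in uninjured CD45+ cells. Of the 8 tested, 5 rose, where 16% of all genes rose. The 11 platelet markers summed to 2859 to 4334 CPM in injured and 520 to 1547 CPM in uninjured CD45+ cells. Of the 4 platelet markers tested, 2 rose and 1 fell, where 16% of all genes rose and 18.5% fell. Nearly all of the sum was Pf4, and Ppbp at 511 to 869 CPM in injured and 4.98 to 6.30 CPM in uninjured CD45+ cells. The platelet receptor genes Gp9 and Itga2b were at 0.253 to 1.23 and 0 to 1.87 CPM in injured CD45+ cells, against 0 to 1.43 and 1.43 to 6.88 CPM in uninjured ones. The part of cell types within the CD45+ sort in the rises of Thbs1, Vcan and Tnfaip6 was not tested. In CD31+ cells the 11 platelet markers summed to 33.1, 85.4 and 27.0 CPM in injured replicates 1, 2 and 3, against 14.9, 11.3 and 11.8 CPM in uninjured ones. Injured replicate 2 was the highest for both these markers and Thbs1. Of the 4 tested there, Pf4 and Ppbp rose (edgeR, adjusted p = 0.0126 and 0.00202), where 14.1% of all genes rose. The part of these 2 genes in the rise of Thbs1 in CD31+ cells was not tested.

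Thbs2, its relative, went the other way. Thrombospondin-2 is made by fibroblasts. It was at 143, 227 and 174 CPM in injured MSC, against 573, 505 and 289 CPM in uninjured MSC, and fell by 1.33 on the log2 scale (SE 0.31; edgeR, adjusted p = 0.0020). In MuSC it was at 25.4, 40.6 and 21.3 CPM in injured and 134, 118 and 114 CPM in uninjured libraries, and fell by 2.07 (SE 0.33, adjusted p = 6.49e-05). No injured library of either population reached the lowest uninjured one. Of the 12 stromal markers, 7 fell and 0 rose in MSC (23.6% and 18.3% of all genes), with a median of -2.11 log2. Pdgfra was among the 5 that did not pass, at 610, 735 and 614 CPM in injured and 607, 526 and 572 CPM in uninjured MSC. The part of this in the fall of Thbs2 was not tested. In CD31+ cells Thbs2 had 13 counts in injured and 22 in uninjured libraries. It did not pass in edgeR (adjusted p = 0.269) and was lower in DESeq2 (-1.50 log2, adjusted p = 0.0437). The responses of Thbs2 did not differ detectably between populations (adjusted p = 0.477).

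Tnc encodes tenascin-C, which is nearly absent from resting adult muscle and present in regenerating muscle. In injured MSC it was at 460, 282 and 320 CPM, against 4.02, 17.7 and 9.33 CPM in uninjured MSC. In injured MuSC it was at 245, 381 and 227 CPM, against 0, 1.69 and 2.95 CPM in uninjured MuSC. In injured CD31+ cells it was at 83.2, 86.4 and 45.7 CPM, against 4.25, 3.39 and 3.83 CPM in uninjured CD31+ cells. The groups were far apart in all 3 populations. The rises were 7.52 ± 0.62 log2 in MuSC (edgeR, adjusted p = 2.1e-08), 5.13 ± 0.49 in MSC (1.38e-07) and 4.21 ± 0.55 in CD31+ (1.33e-05). The MuSC rise moved with the few uninjured counts, to 6.85 log2 without uninjured MuSC replicate 1 and 8.77 log2 without replicate 3, and the MSC rise was 5.92 log2 without uninjured MSC replicate 2. CD45+ cells had 3 Tnc counts in the injured libraries together and 9 in the uninjured. Their response was below those of MuSC, MSC and CD31+ (differences of -9.14, -6.75 and -5.83 log2 on few counts, adjusted p = 0.00419, 0.0163 and 0.0470), and the response differed over the 4 populations (adjusted p = 0.0043). Injured MSC and MuSC did not differ in Tnc beyond the spread (adjusted p = 0.583), and injured MuSC exceeded injured CD31+ cells (adjusted p = 0.000461).

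Postn encodes periostin, which binds tenascin-C and collagen in healing tissue. It was at 570, 431 and 555 CPM in injured MSC, against 569, 752 and 266 CPM in uninjured MSC. The groups overlapped and the difference of -0.03 ± 0.41 log2 did not pass (adjusted p = 0.989), with a sign that changed in several alternative fits. In MuSC Postn had 49, 132 and 95 counts in injured libraries and 0, 0 and 1 counts in uninjured ones (7.29, 21.2 and 12.3 CPM, against 0, 0 and 0.196 CPM). The rise passed (edgeR, adjusted p = 0.000159), and the summed counts, 276 against 1, gave a ratio of 177 with a 95% counting interval of 31.4 to 6997. With injured MuSC replicate 1 alone the rise was 6.05 log2 (adjusted p = 0.0117), and without uninjured MuSC replicate 3 it was 9.10 log2. The response differed over the 4 populations (adjusted p = 0.0040), a difference that missed the threshold with replicate 1 as the only injured MuSC library (adjusted p = 0.0739) and in limma-voom (0.0774).

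**Figure D2:**
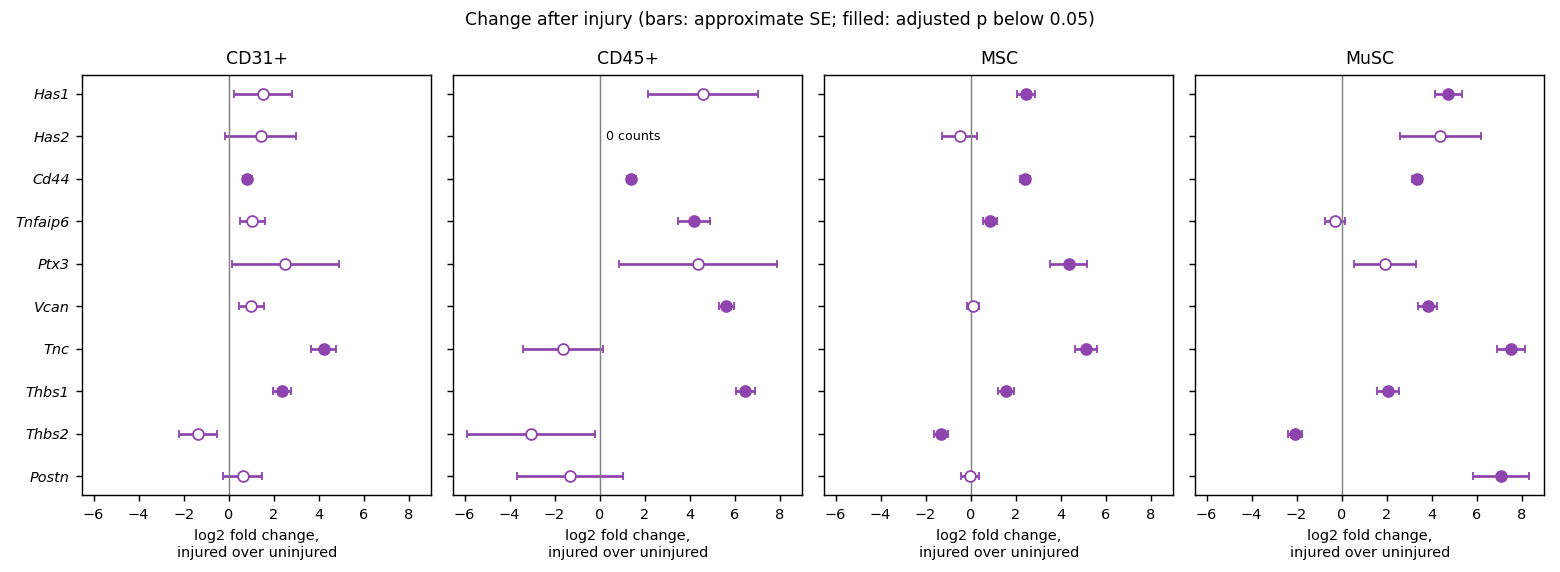
Log2 fold change of each gene, injured over uninjured, in the 4 populations (points, with bars of 1 approximate SE; filled where the adjusted p is below 0.05). Cd44 and Thbs1 are filled to the right of 0 in all 4 panels, Thbs2 is filled to the left in MSC and MuSC, and wide bars belong to genes with few counts.

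Because Pdgfra was higher in injured MuSC replicates 2 and 3 than in replicate 1, the 10 genes were set beside the stromal markers in injured MuSC. The median of the 12 stromal markers was 0.647%, 5.33% and 3.55% of the injured MSC mean in injured MuSC replicates 1, 2 and 3. Single markers ran from 0% to 31.3%, 0.196% to 43.4% and 0.714% to 33.6% in the same libraries. Cd44 (107% to 126%) and Tnc (64.0% to 107%) lay far above these medians in every library. Has1 was at 6.44%, 23.7% and 13.3%, Vcan at 4.91%, 9.27% and 8.25%, and Postn at 1.41%, 4.09% and 2.38%. Has1, Vcan and Postn lay within the range of the single stromal markers in each library. The top of that range was Cd34 in replicate 1 and Dpt in replicates 2 and 3. In uninjured MuSC, Dpt was at 27.01% to 31.64% of the uninjured MSC mean, and Cd34 at up to 18.5%. In injured replicate 1, Has1, Vcan and Postn were above Pdgfra (0.0456%), Dcn (0.16%), Lum (0.472%) and Mfap5 (0.133%). Dpt (21.9%), Cd34 (31.3%) and Col3a1 (9.48%) were above Has1 there. Has1 and Vcan were above the stromal median in every library. Postn was below the stromal median in replicates 2 and 3 and above it in replicate 1. Ptx3 was at 0%, 4.19% and 2.42% and Tnfaip6 at 0.767%, 4.14% and 4.91%. With replicate 1 alone the 6 genes that rose in MuSC, Cd44, Has1, Postn, Thbs1, Tnc and Vcan, still passed the test. How much of the rises of Has1, Vcan and Postn over all 3 libraries came with MSC RNA was not tested.

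**Figure D3:**
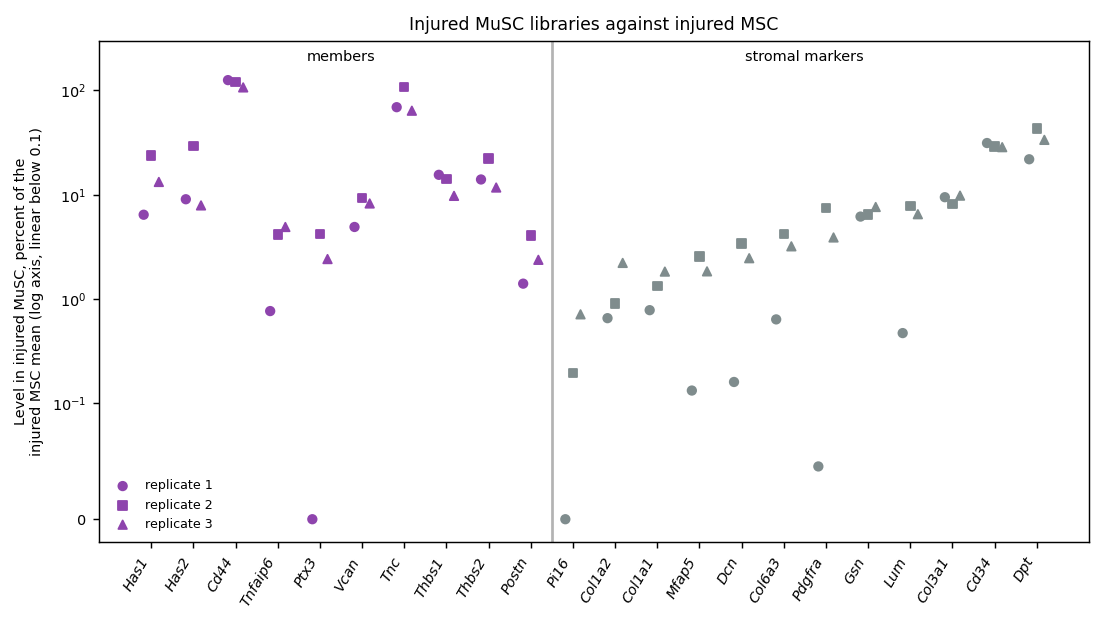
Level of each of the 10 genes (purple, left) and of 12 stromal markers (grey, right) in injured MuSC replicates 1, 2 and 3, as percent of the mean of injured MSC (log axis that is linear below 0.1). Cd44 and Tnc lie between 64.0% and 126%, while Pdgfra is far lower in replicate 1 than in replicates 2 and 3.

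Counted together, 3 of the 10 genes rose in CD31+ cells, where 14.1% of all genes tested rose, 4 in CD45+ cells (16% of all genes), 6 in MSC (18.3%) and 6 in MuSC (21.4%). None fell in CD31+ (9.3% of all genes) or CD45+ cells (18.5%), and Thbs2 fell in MSC (23.6%) and in MuSC (17.5%). The counts of 0 rest on edgeR, and DESeq2 called Thbs2 lower in CD31+ cells. The medians of the 10 log2 fold changes were 3.58 in MuSC, 2.79 in CD45+, 1.23 in CD31+ and 1.21 in MSC, against -0.04, -0.12, -0.04 and -0.22 over all genes. With RLE size factors 1926 genes rose and 2058 fell in CD31+, against 2298 and 1512 with TMM, and none of the 10 genes changed its direction. All injured libraries were above all uninjured ones for 6 of the 10 genes in CD31+ (19.6% of all genes), 4 in CD45+ (20.1%), 6 in MSC (23%) and 7 in MuSC (25.5%). They were all below for none in CD31+ (17.6%) and CD45+ (22.9%), and for Thbs2 in MSC (31.9%) and MuSC (24%). Among all genes tested, 814 rose in all 4 populations, among them Cd44 and Thbs1. The response to injury differed between populations for 6 of the 10 genes (35.9% of all genes): Cd44, Thbs1, Vcan, Tnfaip6, Postn and Tnc. Has1, Has2, Ptx3 and Thbs2 did not pass that test. For Has1 the adjusted p was 0.0891 in edgeR's F test. It passed with no filter on low counts (0.0148), without injured MuSC replicate 1 (0.0170) and in DESeq2 (0.0213).

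Levels placed most of the 10 genes in MSC. In uninjured muscle 7 of them, Has1, Has2, Tnfaip6, Vcan, Thbs1, Thbs2 and Postn, were higher in MSC than in each other population, where 9.09% of all genes were highest, and Cd44 was highest in CD45+ cells (13.7%). In injured muscle 6 of them, Has1, Has2, Tnfaip6, Ptx3, Thbs2 and Postn, were highest in MSC (5.75% of all genes), and Cd44 and Thbs1 in CD45+ cells (15.4%). None was highest in CD31+ cells (10.8% of all genes in injured and 9.92% in uninjured muscle) or in MuSC (8.63% and 7.88%). Thbs1 and Vcan were thus highest in MSC among the uninjured groups only. Per exon length, the highest means in injured MSC were those of Cd44 (73.1 ± 14.1 RPKM), Tnfaip6 (68.0 ± 18.1) and Postn (59.6 ± 8.74), and in uninjured MSC those of Thbs2 (65.1 ± 21.2), Postn (60.8 ± 28.2) and Tnfaip6 (37.4 ± 4.87; SD, n = 3 each).

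**Figure D4:**
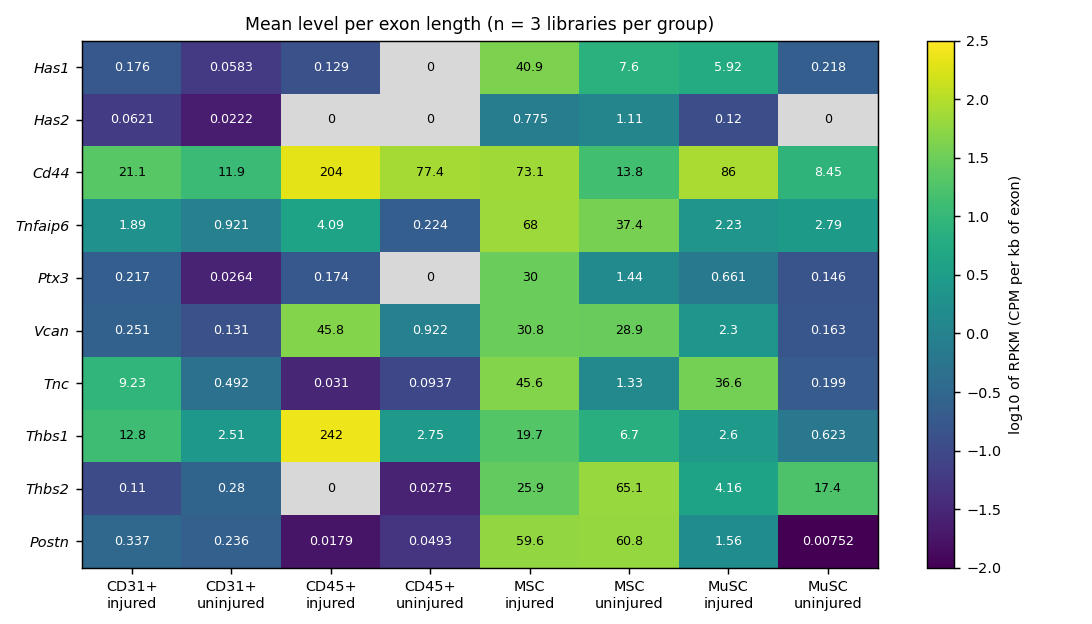
Mean level of each gene in each of the 8 groups in RPKM (CPM per kb of exon; n = 3 libraries per group), printed in the cells and coloured on a log10 scale, grey where no read was counted. Thbs1 and Cd44 in injured CD45+ cells, at 242 and 204, are the highest cells of the map.

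In MSC, 14 of 25 other matrix genes fell. In the list of other matricellular and provisional matrix genes, 28 symbols were measured and 25 tested. Of these, 1 rose and 3 fell in CD31+, 5 rose and 1 fell in CD45+, 4 rose and 14 fell in MSC, and 5 rose and 4 fell in MuSC. The shares of all genes that rose were 14.1%, 16%, 18.3% and 21.4% in the same order, and of those that fell 9.3%, 18.5%, 23.6% and 17.5%. The median log2 fold changes were -0.44, -0.84, -1.50 and -0.33 in CD31+, CD45+, MSC and MuSC, against -0.04, -0.12, -0.22 and -0.04 over all genes. Spp1, which encodes the secreted phosphoprotein osteopontin, was at 6159 ± 1586 CPM in injured and 37.6 ± 11.8 CPM in uninjured CD45+ cells (7.36 ± 1.00 log2, adjusted p = 4.7e-05) and rose in MSC and MuSC too. Cyr61, a matricellular CCN protein gene, was at 1211 ± 359 CPM in injured and 211 ± 87.6 CPM in uninjured CD31+ cells and rose there by 2.52 ± 0.37 log2, in MuSC by 2.63 ± 0.37 log2 and in MSC by 1.65 ± 0.36 log2. The elastic fiber genes Eln and Fbln5 fell in MSC. Eln was at 46.1 ± 10.4 CPM in injured and 439 ± 48.7 CPM in uninjured MSC (-3.25 ± 0.25 log2, adjusted p = 5.54e-10), and Fbln5 fell by 3.17.

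Among 17 receptors of the provisional matrix, 7 rose and 5 fell in CD31+, 9 rose and 5 fell in CD45+, 4 rose and 11 fell in MSC, and 4 rose and 5 fell in MuSC. All-gene shares were 14.1%, 16%, 18.3% and 21.4% for rises and 9.3%, 18.5%, 23.6% and 17.5% for falls in that order of populations. Cd47, a thrombospondin-1 receptor, fell in CD31+, CD45+, MSC and MuSC, by 0.79, 0.40, 0.80 and 0.49 on the log2 scale. Itga5, the fibronectin receptor subunit, was at 401 ± 84.0 CPM in injured and 108 ± 11.9 CPM in uninjured MSC (1.89 ± 0.24 log2, adjusted p = 1.87e-06), and rose in CD31+, CD45+ and MuSC too (0.93, 1.92 and 1.70 log2). Itgb3, an integrin subunit gene, rose by 2.87 ± 0.48 log2 in CD31+ cells and fell by 1.45 in CD45+ and 1.72 in MSC on the log2 scale (adjusted p = 0.0388 and 0.00217). The syndecan gene Sdc1 rose by 2.94 ± 0.35 log2 in MSC, 1.84 in MuSC and 1.07 in CD45+, and fell by 1.26 in CD31+ (adjusted p = 0.0133). Of 11 proteases and inhibitors that act on versican or thrombospondins, 4 rose and 2 fell in CD31+, 2 rose and 0 fell in CD45+, 2 rose and 4 fell in MSC, and 1 rose and 6 fell in MuSC. These counts stand beside the same all-gene shares: 2 of 11 is near the 16% and 18.3% that rose in CD45+ and MSC. Adamts4, which cuts versican, was at 151 ± 58.2 CPM in injured and 5.11 ± 2.06 CPM in uninjured CD31+ cells (4.87 ± 0.53 log2, adjusted p = 6.53e-07). Adamts5, another versican-cleaving protease, fell by 1.49 on the log2 scale in MSC (198 ± 22.9 CPM in injured, 558 ± 45.6 CPM in uninjured) and by 1.49 in MuSC.

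**Figure D5:**
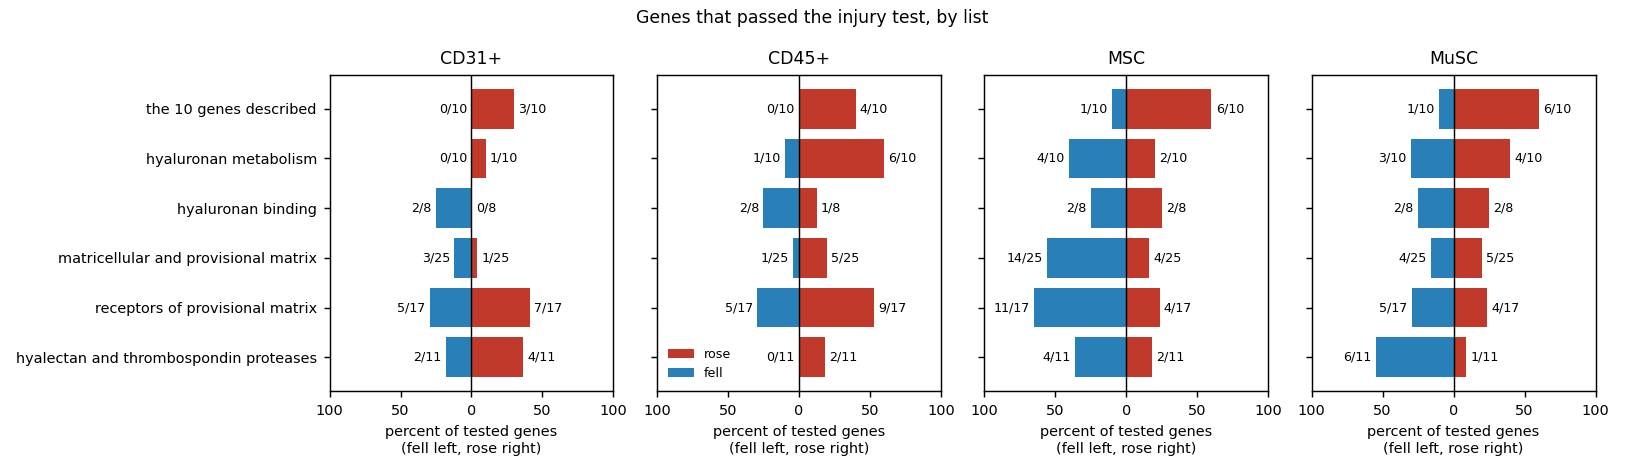
Percent of the tested genes of each list that rose (right) and fell (left) after injury in each population, with the counts beside the bars. In MSC 6 of the 10 genes described rose and 1 fell, while 14 of 25 other matricellular genes fell.

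Across the 24 libraries, which share their 8 groups and so follow the group means, the genes whose log2 CPM was most like each of the 10 were found by Pearson's r. For Has1 they were Bcat1 (0.958), Ccbe1 (0.951) and Il33 (0.938), for Has2 Fst (0.937), Prrx2 (0.935) and Prr16 (0.931), and for Postn Osr1 (0.971), Prrx2 (0.954) and Zfp385b (0.953). For Thbs2 they were Mab21l1 (0.980), Olfml1 (0.979) and Lama2 (0.977), for Tnfaip6 Hdlbp (0.928), Ift20 (0.924) and Nnmt (0.913), and for Ptx3 Crabp1 (0.929), Gpr39 (0.915) and Avpr1a (0.894). For Cd44 they were Gpi1 (0.956), Pfn1 (0.950) and Rnf19b (0.947), and for Vcan Derl1 (0.953), Pdia4 (0.946) and Spcs2 (0.945). For Tnc they were Sae1 (0.925), Tspan4 (0.921) and Tmx2 (0.918), and for Thbs1 Rab1a (0.922), Hif1a (0.915) and Rabgef1 (0.909). Among the 10 themselves the highest r was that of Has2 and Postn (0.923), followed by Has1 with Postn (0.885) and Has1 with Has2 (0.863), all 3 highest in MSC, and the lowest was that of Cd44 and Thbs2 (-0.377).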

How the data were processed

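The authors deposited a table of raw counts for 24 libraries, in whole numbers and not normalized. Per the labels' protocols, cDNA was primed with oligo(dT), amplified and made into Nextera XT libraries, without strand or molecular identifiers, so intervals and floors cover counting error only. The reference was mm10, with STAR 2.5.4 and featureCounts, per the submitters' processing notes. How featureCounts treated reads matching several genes is not given in the sources used here.

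Counts were analysed in R 4.3.3 with edgeR 4.0.16: filterByExpr over 8 groups (minimum count 10), TMM scaling, 1 mean per group over all 24 libraries (16 residual degrees of freedom), robust quasi-likelihood tests, Benjamini-Hochberg adjustment over 16263 genes and a threshold of 0.05. The approximate SE is |log2 fold change| / √F. A gene was highest in a population when it was higher, and passed, against all of the other 3. Levels per kb used the union of exons. Correlations used log2 CPM with a prior count of 2. Fits were tested on simulated data. Alternatives used DESeq2 1.42.0, limma-voom 3.58.1, other size factors, no filter, a replicate block and libraries left out.

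The members and the lists were chosen with earlier results of these data known, and the promoter motifs after the data were seen. Named genes are all 10 members, the 3 genes most like each, and up to 2 genes per pathway list, population and direction by smallest adjusted p, of which 1 is not reported here. Has3 and the second mentions of listed genes in other populations were chosen after their values were seen.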

Additional observations from a re-analysis of the deposited data

Results flagged for a closer look

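The response to injury differed between the 4 populations for 6 genes, by an F test on the injury contrasts in edgeR with adjustment over all genes. The adjusted p was 7.17e-08 for Vcan, whose log2 fold changes were 0.09 in MSC and 5.63 in CD45+ cells. It was 3.45e-06 for Thbs1 (1.56 in MSC, 6.47 in CD45+) and 4.09e-06 for Cd44 (0.83 in CD31+, 3.35 in MuSC). It was 0.0024 for Tnfaip6 (-0.31 in MuSC, 4.19 in CD45+), 0.0040 for Postn (-0.03 in MSC, 7.08 in MuSC) and 0.0043 for Tnc (7.52 in MuSC, and 3 injured against 9 uninjured counts in CD45+).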

How the results depend on the processing

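Of 39 pairs of gene and population with counts, 21 were called, and 19 of these kept their call and sign in all 31 alternative fits. The exceptions were Tnfaip6 and Ptx3 in MSC, given in the report. Of 18 uncalled pairs, 14 stayed uncalled, the exceptions being Tnfaip6 and Thbs2 in CD31+, Has1 in CD45+ and Tnfaip6 in MuSC. The count of genes that fell in CD31+ was 1 with DESeq2 (Thbs2), and in MuSC it was 2 with injured replicate 1 alone, an alternative chosen after seeing the data. With 1 library left out, members that rose numbered 3 to 3 in CD31+, 4 to 4 in CD45+, 5 to 6 in MSC and 6 to 6 in MuSC, and those that fell 0 to 0, 0 to 0, 1 to 1 and 1 to 1. Members highest in uninjured MSC numbered 6 to 8 and in injured MSC 5 to 6, those in uninjured and injured CD45+ 1 to 1 and 2 to 3, and members whose response differed 6 to 7.

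Signs turned for uncalled values on few counts or overlapping groups. With a library left out, log2 fold changes in CD31+ ran between -0.023 and 3.6 for Has2, -2.13 and 4.67 for Ptx3 and -0.30 and 1.19 for Postn, each negative without injured replicate 3, and Postn was at -0.59 in limma-voom. Tnc in CD45+ ran between -2.46 and 0.67 (without uninjured replicate 1), Has2 in MSC between -0.74 and 0.76 (without uninjured replicate 3) and Tnfaip6 in MuSC between -0.75 and 0.16 (without injured replicate 1). Ptx3 in MuSC was at -4.27 with injured replicate 1 alone. Postn in MSC was at 0.17 without a filter, 0.079 in limma-voom, 0.10 in a fit of its own 2 groups and 0.13 with injured MuSC replicate 1 alone, and between -0.20 and 0.48 with a library left out. The cause was not tested.

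Libraries with the same muscle number correlated in their deviations at r of -0.083 to 0.072 between conditions and -0.0142 to 0.133 between populations of 1 condition. No comparison had every r over 0.1, and the numbers were not used as pairs. The highest r were in injured muscle. For replicates 1, 2 and 3 they were 0.086, 0.042 and 0.133 between CD45+ and MuSC. Between MSC and MuSC they were 0.123, 0.110 and -0.014. Unequal numbers were not compared between populations, so this check cannot show whether a muscle was shared within a condition. With a replicate block 3, 4, 6 and 6 members rose and 0, 0, 1 and 1 fell, and it changed no call. The block joins equal numbers over both conditions, so it cannot show the effect of a muscle shared within 1 condition only. Over all genes, 1512 fell in CD31+ against 1007 without a filter and 2420 with DESeq2. In MSC 3831 fell against 2258 without injured replicate 1, and in MuSC 3477 rose and 2841 fell against 2219 and 1807 with injured replicate 1 alone. RLE size factors moved the median of all genes in CD31+ by -0.11 log2, and the share of rising calls to 48.3% from 60.3%.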
